A study of Mus musculus with 18 samples.

Results

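Ribosome footprints of mouse GTML medulloblastoma cells were compared after 3 h with rapamycin and with the solvent DMSO. The comparison took 6 of the 18 libraries of the series, chosen by treatment and assay from the labels: 3 footprint libraries of cells given 5 nM rapamycin, and 3 of cells given DMSO. The other 12 libraries are 3 footprint libraries of cells given 50 nM Rapalink-1, whose values are set beside those of rapamycin at a few points, and 9 libraries of total RNA, which were not used. GTML cells are a single line from brain tumours of mice with a human MYCN transgene, and cells of every treatment carry it. In the mouse model of that name expression of the transgene depends on the promoter of the glutamate transporter gene Glt1 (Slc1a2). The labels give MYCN overexpression as the genotype. The cells were grown in neurobasal medium with EGF and bFGF, so every group also received both growth factors. The labels do not say whether replicates were separate cultures, so p-values measure the spread between these libraries, which may be technical.

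Footprints are the stretches of mRNA that translating ribosomes shield from nuclease, and their number per gene depends on the amount of the mRNA and on how many ribosomes sit on it. These 2 parts cannot be told apart from footprints alone. The kinase mTOR works in 2 complexes, of which mTORC1 couples protein synthesis and growth to nutrients and growth factors. Its substrates include S6 kinases and 4E-BPs, the repressors of the cap-binding protein eIF4E, and it controls above all the mRNAs that begin with a C followed by a run of pyrimidines, the 5′ terminal oligopyrimidine (TOP) mRNAs of ribosomal proteins and elongation factors. Rapamycin, bound to FKBP12, is an allosteric inhibitor of mTORC1 that blocks some of its substrates more fully than others, while Rapalink-1 joins a rapamycin-like part to an inhibitor of the ATP site.

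The bases around an annotated start of 8 genes that the results turn on are shown here. A pyrimidine run at the 5′ end of the mRNA is the known feature of TOP mRNAs. Each is taken from RefSeq's mouse annotation (build GRCm38.p6) and runs from 10 bases before to 20 bases after 1 annotated start. Capitals mark a run of a C followed by at least 4 C or T that begins within 10 bases of the start. The first 6 genes fell with rapamycin and the last 2 rose. Rps6 and Eef1a1 were added after their values were seen, as typical TOP mRNAs. In Eef1a1 the marked run begins at position -5, before the annotated start. Whether its mRNA begins there was not tested, so the capitals are not shown to be the pyrimidine run of its mRNA.

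Rps24, chr14:24490668-24490697, plus strand: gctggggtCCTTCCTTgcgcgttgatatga
Rps6, chr4:86857348-86857377, minus strand: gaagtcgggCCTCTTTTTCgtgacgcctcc
Eef1a1, chr9:78481705-78481734, minus strand: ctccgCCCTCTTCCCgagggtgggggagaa
Ifrd1, chr12:40223170-40223199, minus strand: ggtctggccaccccgCCTTCgctcccgcgc
Hmgcs1, chr13:119690341-119690370, plus strand: gagcgactctgagtcccgggattggcagag
Pfkfb3, chr2:11553910-11553939, minus strand: catcgcccgcaggccgccccgagcctcggg
Fbxl20, chr11:98149597-98149626, minus strand: ggcaggtggggagtgtttttgttttgggtt
Hbp1, chr12:31950226-31950255, minus strand: gggggcttcaggggagggggaagacgaagc

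The rapamycin libraries held 12820072, 11608873 and 13069883 reads after transcripts were merged to genes, against 14150068, 7692625 and 10371672 reads in the DMSO libraries. Values below are CPM, that is counts scaled to library size with TMM factors, and log2 fold changes of rapamycin over DMSO ± standard error from edgeR's quasi-likelihood test with 3 libraries per group. A gene was called at a Benjamini-Hochberg adjusted p under 0.05 over all 11281 genes tested. In the first principal component of the 6 libraries, with 38% of the variance, the rapamycin libraries lay between 13.21 and 17.19 and the DMSO libraries between -20.11 and -12.78. The second, with 20.5%, split DMSO replicate 2 from DMSO replicate 3 at -17.7 and 21.24. The column names of the DMSO and Rapalink-1 footprint libraries end in a B that those of rapamycin lack. Its meaning is not given, and if it marks a separate preparation, that cannot be told apart from the treatment. No spike-in is recorded, so changes in total footprints per cell are not seen and each value is set by the rest of its library.

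Footprints changed for 2047 of 11281 genes (18.1%), of which 987 rose (8.75% of genes tested) and 1060 fell (9.4%). These shares over all genes are the background for the counts of every gene list below. Most changes were small. The 5th and 95th percentiles of all genes were -0.40 and 0.51, and the median size of a called change was 0.34 with a median standard error of 0.078. A change of 2-fold or more was reached by 60 genes that rose and by 11 that fell. In 3541 genes (31.4%) the 3 rapamycin values and the 3 DMSO values did not overlap. With library totals in place of TMM factors, which moves the median of all genes by 0.05, 1391 genes rose and 654 fell, so the balance of rises and falls rests on the scaling.

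**Figure D1:**
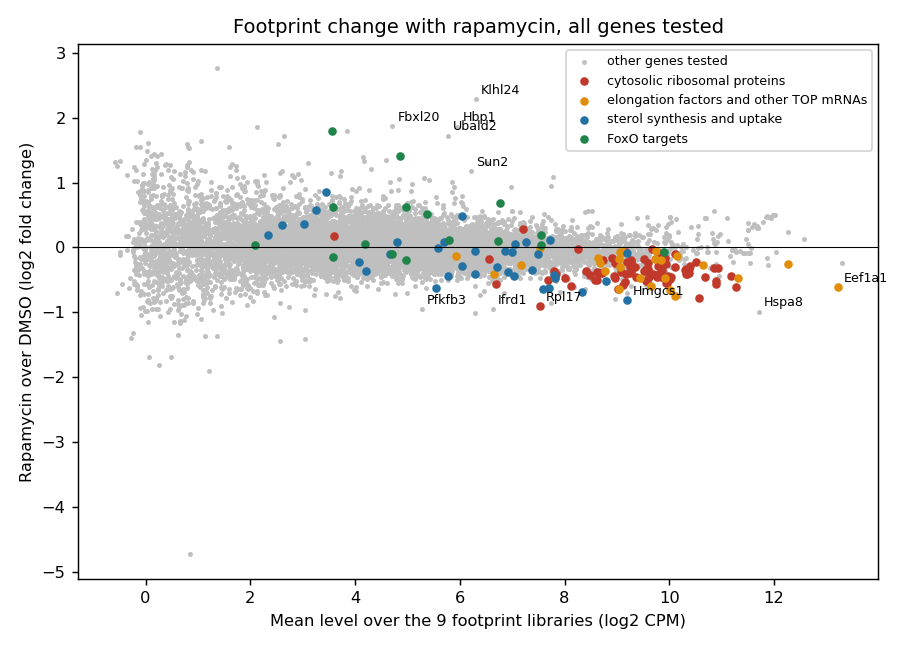
Each point is a gene: the x axis gives its mean level over the 9 footprint libraries in log2 CPM and the y axis its log2 fold change of rapamycin over DMSO. Ribosomal proteins (red) lie below 0 at high levels with a median of -0.40, while Klhl24, Fbxl20, Hbp1 and Ubald2 stand highest among the labelled genes.

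Footprints on the mRNAs of ribosomal proteins fell together by a small amount. Of 82 cytosolic ribosomal proteins tested, 72 fell, 1 rose and 9 were not called, with a median of -0.40, against a median of 0.00 and 9.4% lower over all genes. Large subunit proteins (43 of 48 lower, median -0.40) and small subunit proteins (29 of 34 lower, median -0.39) had nearly the same medians. Under library totals 66 fell, with a median of -0.34. Together these genes took 7.34, 7.51 and 7.35% of footprint reads with rapamycin, against 9.16, 9.17 and 9.67% with DMSO, and the groups did not overlap.

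The largest fall of a ribosomal protein was that of Rpl17, of the large subunit, with 179, 163 and 185 CPM with rapamycin, against 317, 324 and 350 CPM with DMSO (-0.91 ± 0.058, adjusted p = 4.2e-15). Rps24, of the small subunit, had 1510, 1430 and 1540 CPM with rapamycin, against 2620, 2410 and 2630 CPM with DMSO (-0.77 ± 0.049, adjusted p = 3.9e-15). All rapamycin values of both genes lay below all DMSO values, which the rule for the largest falls, given below, required. Rps6, the ribosomal protein that S6 kinases phosphorylate, had 1050, 1050 and 1110 CPM with rapamycin and 1600, 1580 and 1490 CPM with DMSO (-0.54 ± 0.049). Rps3a1 fell by 0.62 ± 0.046, Rps4x by 0.57 ± 0.047, Rpl36a by 0.55 ± 0.05 and Rpl5, which binds the 5S rRNA, by 0.51 ± 0.048. Rpl13a stood at -0.58 ± 0.051 and Rps27 at -0.60 ± 0.051, but their counts are close to those of Gm45713 and Rps27rt, so the split between copies is uncertain. Rpl13a-ps1, by its symbol a pseudogene of Rpl13a, stood at -0.68 ± 0.055, and which gene its reads come from was not tested. The only member that rose was Rps27l, a p53-inducible relative of Rps27, with 175, 179 and 167 CPM with rapamycin and 145, 134 and 150 CPM with DMSO (0.28 ± 0.058, adjusted p = 0.00049). Rps2 stood at 0.18 ± 0.14 and was not called (adjusted p = 0.41). Its row held only 19.1, 18.6 and 15.6 CPM with rapamycin and 17.7, 16 and 12.9 CPM with DMSO, far below Rps6.

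Footprints of the elongation factors and other TOP mRNAs fell as well, in 20 of 26 with 0 higher, at a median of -0.27. At an unadjusted p under 0.05 and with the DESeq2 Wald test 0 were higher as well. Eef1a1, which brings aminoacyl-tRNA to the ribosome, had 10800, 10800 and 10900 CPM with rapamycin, against 16600, 16600 and 16500 CPM with DMSO (-0.61 ± 0.042, adjusted p = 3.0e-14). The spread within each group was far smaller than the gap between them. Eef2, which moves the ribosome along the mRNA, had 3060, 3030 and 2950 CPM with rapamycin and 4020, 4350 and 4160 CPM with DMSO (-0.47 ± 0.046, adjusted p = 3.0e-10). Tpt1, a small growth-linked protein, fell by 0.75 ± 0.048, the eEF1 subunit Eef1g by 0.65 ± 0.049, and the poly(A)-binding protein Pabpc1 by 0.63 ± 0.05. The list took 3.39, 3.33 and 3.45% of footprint reads with rapamycin and 4.45, 4.37 and 4.4% with DMSO.

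A pyrimidine run of the kind marked above began within 10 bases of the annotated start in 54.7% of the 53 ribosomal protein genes with a single start in the RefSeq table, and in 44.4% of 18 genes of the TOP list. Over all 6106 tested genes with a single start there it was 31.9%. Among genes that fell outside both lists it was 32.7% of 593, and among genes that rose 29.7% of 586. When the run could begin up to 40 bases downstream, the shares were 88.7% of ribosomal proteins, 77.8% of the TOP list, 53.6% of the other falls, 46.6% of the rises and 51.8% of all genes. Annotated starts can lie away from the start a cell uses, so a gene without a run in the window, such as Hmgcs1 or Pfkfb3, is only shown to lack these letters there. For the same reason, a run in the window is not shown to lie at the 5′ end of the mRNA.

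**Figure D2:**
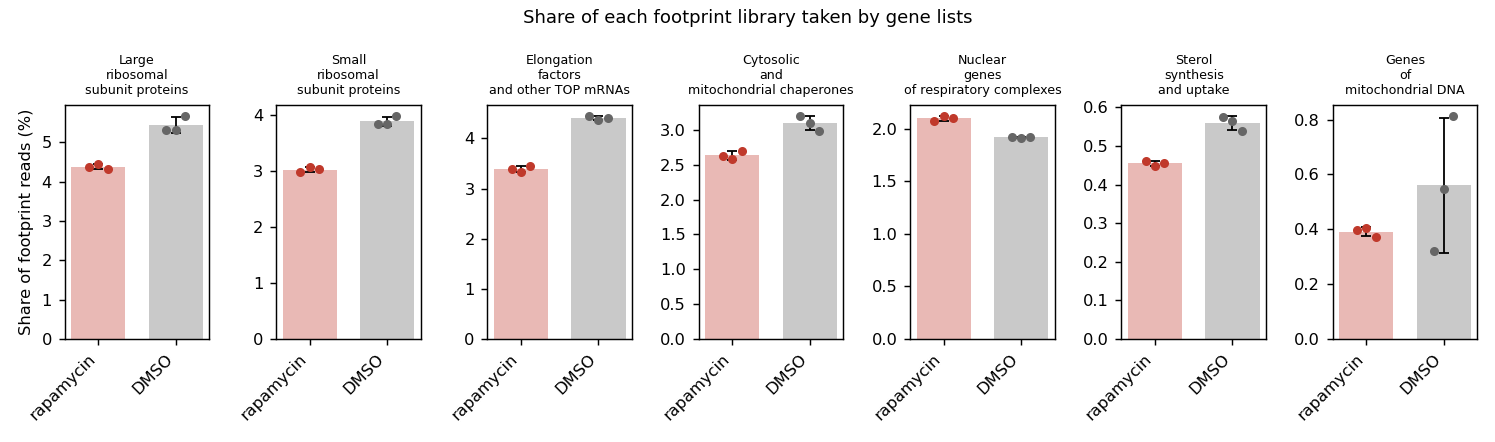
Bars give the mean share of footprint reads (%) taken by 7 gene lists in 3 rapamycin libraries (left, red) and 3 DMSO libraries (right, grey), with points for each library and error bars of 1 SD. Ribosomal proteins, TOP mRNAs, chaperones and sterol genes were lower with rapamycin in every library, respiratory genes were higher, and mitochondrial DNA genes spread from 0.321 to 0.814% among the DMSO libraries.

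Initiation factors outside the TOP list moved less. Of 27 tested, 11 fell and 1 rose, at a median of -0.12, against 9.4% lower and 8.75% higher over all genes. The count of falls became 6 under library totals, 7 with only the 6 compared libraries and 7 without DMSO replicate 1. The rises were 0 without rapamycin replicate 2 or DMSO replicate 1. Eif3a, the largest subunit of eIF3, fell by 0.36 ± 0.051 and had 826, 850 and 871 CPM with rapamycin, against 1130, 1130 and 1010 CPM with DMSO. Eif5b, which joins the ribosomal subunits, fell by 0.32 ± 0.054, Eif2a by 0.32 ± 0.063 and Eif1, of start codon selection, by 0.31 ± 0.06.

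In the cap-binding complex and its repressors 2 of 23 members rose and 3 fell, at a median of -0.05, and without rapamycin replicate 1 the falls were 1. These shares are near the 8.75% higher and 9.4% lower over all genes. Pdcd4, which blocks the helicase eIF4A and is degraded after phosphorylation by S6 kinase, had 121, 132 and 136 CPM with rapamycin, against 70, 73 and 62.1 CPM with DMSO (0.93 ± 0.067, adjusted p = 1.4e-13). Paip2, which displaces poly(A)-binding protein, had 173, 172 and 175 CPM with rapamycin and 127, 127 and 137 CPM with DMSO (0.41 ± 0.057, adjusted p = 8.9e-07). The RNA-binding protein Larp4 fell by 0.32 ± 0.05 and the helicase Eif4a2 by 0.22 ± 0.059; the call of Eif4a2 was lost without rapamycin replicate 1 (-0.19, adjusted p = 0.055).

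The cap-binding protein Eif4e had 289, 306 and 328 CPM with rapamycin and 339, 352 and 336 CPM with DMSO. Its fall of 0.15 ± 0.054 was close to the threshold (adjusted p = 0.041) and was lost under library totals (-0.10, adjusted p = 0.22), with only the 6 compared libraries (adjusted p = 0.077), and without rapamycin replicate 1 or 2 or DMSO replicate 1 or 2 (adjusted p from 0.063 to 0.25). Its repressor Eif4ebp1 stood at 0.18 ± 0.072 (adjusted p = 0.078), a value that passed the test under library totals (0.23, adjusted p = 0.023) and without DMSO replicate 3 (0.22, adjusted p = 0.045). Eif4ebp2 stood at -0.04 ± 0.11 (adjusted p = 0.86). Larp1, which binds TOP mRNAs, had 193, 200 and 206 CPM with rapamycin and 217, 216 and 212 CPM with DMSO, a difference of -0.11 ± 0.055 that was not called (adjusted p = 0.19).

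Among the mTOR complexes and nutrient sensors, 4 of 42 rose and 2 fell, at a median of 0.06, and without DMSO replicate 1 the rises were 2. The kinase itself and 3 of its partners and targets were not called: Mtor stood at -0.03 ± 0.08, the mTORC1 scaffold Rptor at -0.10 ± 0.069, the S6 kinase Rps6kb1 at 0.04 ± 0.085 and Eef2k, the kinase of eEF2, at 0.04 ± 0.089 (adjusted p from 0.34 to 0.84). Over all genes 8.75% rose and 9.4% fell, so the share that rose is near the background. Rhebl1, a relative of the mTORC1 activator Rheb, had 13, 12.1 and 15.6 CPM with rapamycin, against 5.21, 3.22 and 2.94 CPM with DMSO (1.78 ± 0.18, adjusted p = 1.3e-09). Deptor, an inhibitor of mTOR, rose by 0.66 ± 0.12. Sesn2, a leucine sensor that restrains mTORC1 and a target of the stress factor ATF4, had 5.59, 6.44 and 7.1 CPM with rapamycin and 12.9, 10.9 and 13.2 CPM with DMSO (-0.96 ± 0.17). Ddit4, another stress-induced inhibitor, fell by 0.38 ± 0.085.

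Genes that build ribosomes fell in part. Of 68 genes of ribosome biogenesis and RNA polymerases I and III, 32 fell and 2 rose, at a median of -0.17; under library totals 20 fell and 4 rose. The rises numbered 1 without rapamycin replicate 1, DMSO replicate 1 or DMSO replicate 2, and 5 without DMSO replicate 3. Tsr1, a factor of small subunit maturation, had 165, 160 and 172 CPM with rapamycin, against 258, 251 and 232 CPM with DMSO (-0.58 ± 0.056, adjusted p = 4.4e-10). Polr1b, a subunit of RNA polymerase I, fell by 0.47 ± 0.057 and the nucleolar helicase Ddx21 by 0.40 ± 0.05. Maf1, a repressor of RNA polymerase III that mTORC1 phosphorylates, had 44, 53.4 and 51.3 CPM with rapamycin and 29.7, 32.4 and 32.3 CPM with DMSO (0.66 ± 0.084, adjusted p = 1.7e-07).

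Footprints of enzymes that charge tRNAs with amino acids fell as well. The list holds 20 cytosolic aminoacyl-tRNA synthetases, of which 13 fell, and 3 partner proteins, of which 1, Eef1e1, fell (-0.22). Of its 23 members, 14 fell and 0 rose in the edgeR test, at a median of -0.18 (7 lower under library totals); no member was higher at an unadjusted p under 0.05 or with the DESeq2 Wald test either. The threonyl enzyme Tars fell by 0.40 ± 0.051, with 348, 342 and 345 CPM with rapamycin and 468, 463 and 431 CPM with DMSO. Nars fell by 0.30 ± 0.05, Lars by 0.27 ± 0.055 and Eprs by 0.26 ± 0.056. Atf4, the transcription factor of the amino acid response, had 25.3, 24 and 22.8 CPM with rapamycin, against 37.4, 38.4 and 42.5 CPM with DMSO (-0.71 ± 0.097, adjusted p = 5.5e-07). Of 39 members of the list of ATF4 targets and serine and one-carbon enzymes, 10 fell and 1 rose, at a median of -0.12. Under library totals and without rapamycin replicate 1, 6 fell. The rises were 2 under library totals and 0 without rapamycin replicate 1 or 2. Asparagine synthetase, Asns, fell by 0.22 ± 0.051 and the mitochondrial folate enzyme Mthfd1l by 0.28 ± 0.058.

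**Figure D3:**
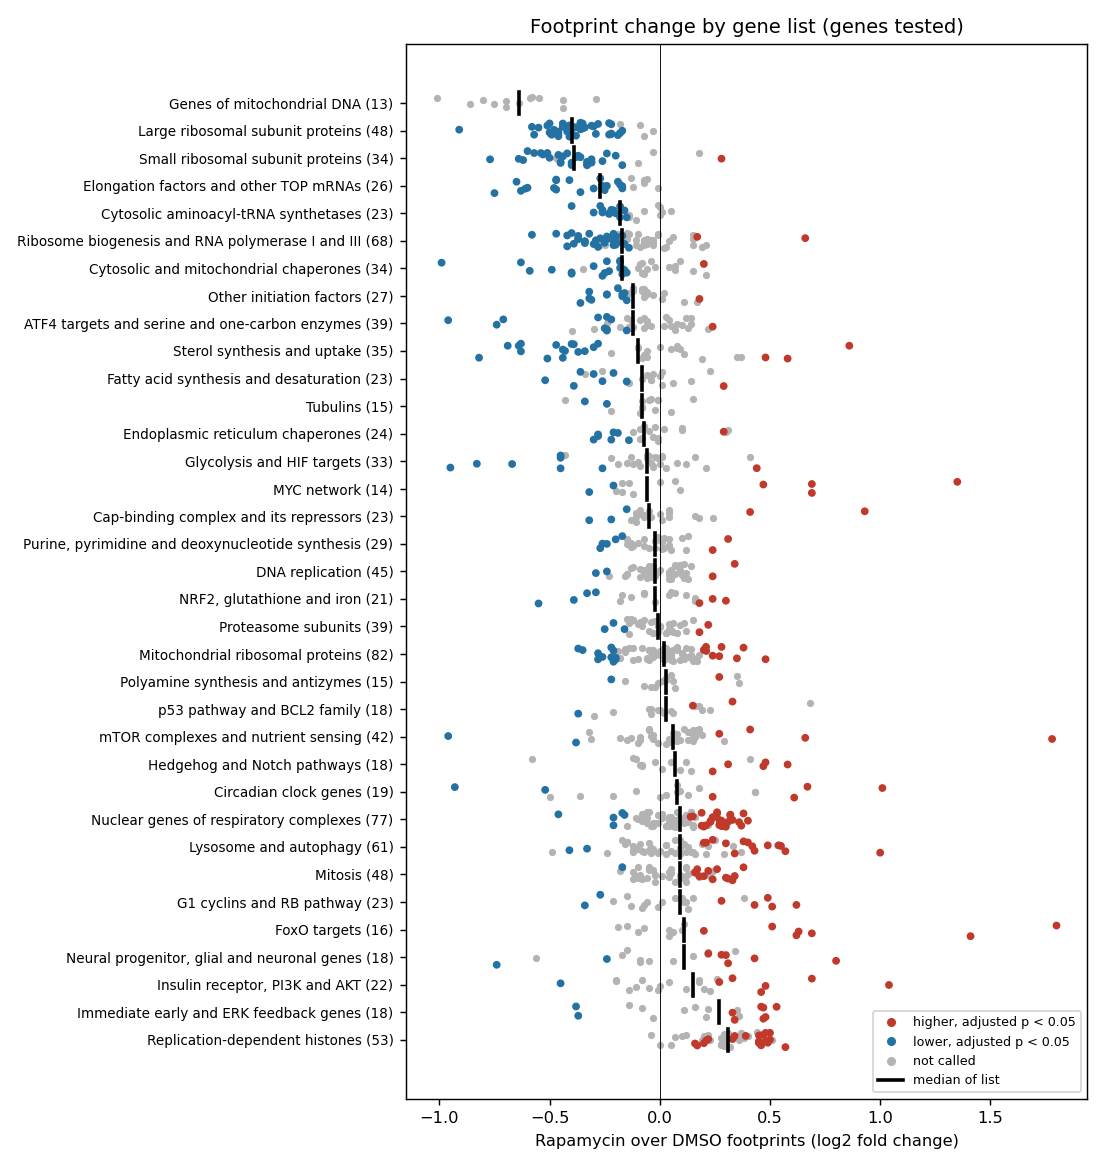
Each point is a gene tested, placed by its log2 fold change of rapamycin over DMSO (x axis) in the row of its list, with the number tested in brackets: red and blue points were called higher and lower, grey points were not called, and black ticks are list medians. Ribosomal proteins and TOP mRNAs lie almost wholly left of 0 with medians of -0.40 and -0.27, and mitochondrial DNA genes are far to the left without a call.

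Most of the sterol genes that changed fell, and those that rose included exporters. Of 35 genes of sterol synthesis and uptake, 16 fell and 3 rose, at a median of -0.10. Hmgcs1, an early enzyme of the pathway, had 482, 452 and 494 CPM with rapamycin, against 845, 842 and 829 CPM with DMSO (-0.82 ± 0.05, adjusted p = 1.7e-15). The groups did not overlap, which the rule for the largest falls required. Msmo1, a later synthetic enzyme, fell by 0.64 ± 0.061 and Hsd17b7 by 0.63. Among the 3 members that rose were the sterol exporters Abca1 at 0.86 and Abcg1 at 0.58, named after their values were seen. The list took 0.462, 0.447 and 0.455% of reads with rapamycin and 0.575, 0.565 and 0.54% with DMSO.

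Of 23 genes of fatty acid synthesis and desaturation, 7 fell and 1 rose, at a median of -0.08. The shares over all genes were 9.4% lower and 8.75% higher. The rises were 2 under library totals and without rapamycin replicate 2. Fatty acid synthase, Fasn, had 737, 703 and 750 CPM with rapamycin and 1030, 1030 and 818 CPM with DMSO (-0.39 ± 0.062). Acetyl-CoA carboxylase, Acaca, fell by 0.36 ± 0.067 and the desaturase Scd2 by 0.26 ± 0.047, while Tecr, of fatty acid elongation, rose by 0.29 ± 0.053.

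In the list of glycolysis and HIF targets 7 of 33 fell and 1 rose, at a median of -0.06. The shares over all genes were 9.4% lower and 8.75% higher. The rises were 3 under library totals, 2 with the DESeq2 Wald test or without rapamycin replicate 3, and 0 without DMSO replicate 1. Pfkfb3, which makes the allosteric activator of phosphofructokinase, had 30.4, 31.5 and 35.7 CPM with rapamycin, against 65.7, 63.8 and 59.3 CPM with DMSO (-0.95 ± 0.084, adjusted p = 3.8e-11). Hexokinase 2, Hk2, had 74.1, 68.8 and 68.5 CPM with rapamycin and 109, 113 and 115 CPM with DMSO (-0.67 ± 0.064). The glucose transporter Slc2a1 fell by 0.45 ± 0.093 and the prolyl hydroxylase P4ha1, of collagen, by 0.45 ± 0.073. The footprint share of the whole list was 1.5, 1.53 and 1.49% with rapamycin and 1.45, 1.49 and 1.47% with DMSO, so the whole list took no smaller share with rapamycin.

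Hspa8, the constitutive Hsc70 chaperone, showed the largest fall of any gene under the rule for named genes. It had 3100, 2990 and 3120 CPM with rapamycin, against 6280, 6010 and 6000 CPM with DMSO, which left 50.4% of the DMSO level (-0.99 ± 0.045, adjusted p = 1.5e-19). Of 34 cytosolic and mitochondrial chaperones, 18 fell and 1 rose, at a median of -0.17; under library totals 10 fell and 2 rose. The rises were 2 with no filter on low counts and 0 without DMSO replicate 1. Its co-chaperones Dnaja2 and Dnaja1 fell by 0.49 ± 0.053 and 0.40 ± 0.053, and Hsp90ab1 fell by 0.26 ± 0.044. In the endoplasmic reticulum 7 of 24 chaperones fell and 1 rose, at a median of -0.07. The falls became 4 under library totals and without rapamycin replicate 1, and the rises became 2 under library totals and 0 without DMSO replicate 3. Hspa5 (BiP) had 1720, 1720 and 1700 CPM with rapamycin and 2260, 2080 and 1920 CPM with DMSO (-0.28 ± 0.05).

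The largest rises exceeded the largest falls in size. Klhl24, a substrate adaptor of cullin ubiquitin ligases, rose most, to 75.7, 66.1 and 73 CPM with rapamycin, against 15.8, 13.7 and 14 CPM with DMSO. This is a 4.89-fold rise (2.29 ± 0.085, adjusted p = 1.5e-22). Fbxl20, an F-box adaptor of ubiquitin ligases, had 30.7, 27.8 and 32.2 CPM with rapamycin and 8.91, 10.2 and 5.88 CPM with DMSO (1.87 ± 0.13). Hbp1, a repressor of transcription that slows the cell cycle, had 50.3, 52.2 and 53.6 CPM with rapamycin and 15.6, 12.6 and 14.1 CPM with DMSO (1.86 ± 0.09). Ubald2 had 82.6, 69.2 and 69.2 CPM with rapamycin and 20.4, 23.3 and 23.7 CPM with DMSO (1.73 ± 0.091). In each of these genes the lowest rapamycin value was more than the highest DMSO value, which the rule for the largest rises required.

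Further rises named by the rule, among genes with a mean log2 CPM of at least 4 over the 9 libraries, were those of Zswim4 at 1.39 ± 0.13, Mycl, a MYC family member, at 1.35 ± 0.13, and Coq8a, of coenzyme Q synthesis, at 1.34 ± 0.15. Tcp11l2 rose by 1.21 ± 0.13, Sun2, which links the nuclear envelope to the cytoskeleton, by 1.17 ± 0.075, and the kinase Pim1 by 1.07 ± 0.093. The pseudogene Gm12728 also met the rule, at 1.31 ± 0.29 (adjusted p = 0.026), but lost its call without DMSO replicate 2 or any one of the rapamycin replicates (adjusted p from 0.057 to 0.077), and its reads may come from a related gene. Klhl24 lies on chromosome 16 from 20097553 to 20129226, Ubald2 on chromosome 11 from 116434094 to 116439077 and Hspa8 on chromosome 9 from 40801276 to 40805202 (GRCm38), each interval spanning a protein-coding gene.

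Remaining large falls lay in genes outside the lists above. Ifrd1, a transcriptional coregulator, had 63.8, 63.2 and 65.6 CPM with rapamycin, against 129, 122 and 122 CPM with DMSO (-0.95 ± 0.066, adjusted p = 4.3e-14). A pyrimidine run of 5 bases begins at position 6, downstream of its annotated start. Such a run lay in the window in 31.9% of all tested genes with a single start. Paxbp1 fell by 0.70 ± 0.091. Stmn2, a neuronal regulator of microtubules, had 55.3, 51.2 and 50.9 CPM with rapamycin and 89.3, 86.1 and 86.5 CPM with DMSO (-0.74 ± 0.067, adjusted p = 7.8e-11).

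**Figure D4:**
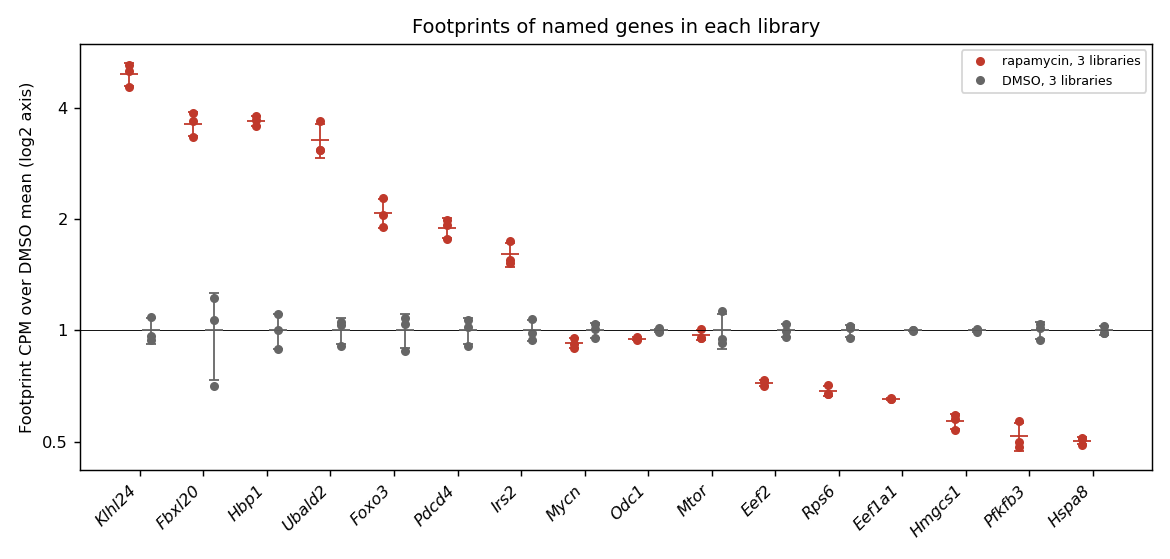
Points are the 3 rapamycin libraries (left, red) and the 3 DMSO libraries (right, grey) of each gene, as CPM divided by the mean DMSO CPM of that gene on a log2 axis, with dashes for the mean and error bars of 1 SD. Klhl24 stands highest at 4.89-fold, Hspa8 lowest, and Mycn, Odc1 and Mtor lie near 1.

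Several genes of insulin signalling, which acts upstream of mTOR, rose. Of 22 genes of the insulin receptor, PI3K and AKT list, 6 rose and 1 fell, at a median of 0.15, against 8.75% higher and a median of 0.00 over all genes. Foxo3, a transcription factor that AKT keeps out of the nucleus, had 46.1, 41.5 and 38.5 CPM with rapamycin, against 21, 17.8 and 21.8 CPM with DMSO (1.04 ± 0.095, adjusted p = 7.6e-11). Irs2, an adaptor of the insulin receptor, had 110, 96 and 97.8 CPM with rapamycin and 59.6, 67.7 and 61.9 CPM with DMSO (0.69 ± 0.068, adjusted p = 4.4e-10). The related adaptor Irs1 rose by 0.46 and the PI3K catalytic subunit Pik3ca by 0.48 ± 0.085, while the regulatory subunit Pik3r3 fell by 0.45 ± 0.088. The receptor Insr rose by 0.27 ± 0.084 (adjusted p = 0.022), but its groups overlapped. It had 51.2, 56.2 and 59.4 CPM with rapamycin and 46.9, 52.7 and 39.8 CPM with DMSO.

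Of 16 FoxO targets, 7 rose and 0 fell in the edgeR test, at a median of 0.11. At an unadjusted p under 0.05, 1 was lower, and with the DESeq2 Wald test 0 were lower. Ccng2, a cyclin-like inhibitor of proliferation, had 10.5, 14.3 and 13.3 CPM with rapamycin, against 4.08, 4.77 and 2.2 CPM with DMSO (1.80 ± 0.19, adjusted p = 3.5e-09). Fbxo32, the ubiquitin ligase adaptor atrogin-1, had 20.5, 17.9 and 19.6 CPM with rapamycin and 6.19, 7.29 and 8.61 CPM with DMSO (1.41 ± 0.13, adjusted p = 5.2e-11). Values of both genes were low but did not overlap between the groups, which for Fbxo32 the rule for the largest rises required. Txnip, an inhibitor of glucose uptake, rose by 0.62 ± 0.13, the mitophagy kinase Pink1 by 0.63 and the CDK inhibitor Cdkn1b by 0.51 ± 0.09.

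In the lysosome and autophagy list 14 of 61 genes rose and 2 fell, at a median of 0.09. The shares over all genes were 8.75% higher and 9.4% lower. Atg13, a subunit of the ULK1 initiation complex, had 27.5, 28.3 and 26.1 CPM with rapamycin, against 12, 12.9 and 16.2 CPM with DMSO (1.00 ± 0.11, adjusted p = 1.1e-08). The autophagy receptor Nbr1 rose by 0.57 ± 0.064 and the kinase Ulk1, which mTORC1 restrains, by 0.43. Subunits of the lysosomal proton pump went both ways, with Atp6v0c at 0.55 ± 0.066 and Atp6v1c1 at -0.33 ± 0.061, and Atg5, of the conjugation machinery, fell by 0.41.

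Nuclear genes of the respiratory complexes rose slightly. Of 77 tested, 26 rose and 5 fell, at a median of 0.09; the falls were 1 under library totals, 3 with only the 6 compared libraries and between 2 and 3 without DMSO replicate 2 or any rapamycin replicate. Sdhd, of complex II, had 190, 200 and 186 CPM with rapamycin and 146, 159 and 134 CPM with DMSO (0.40 ± 0.064, adjusted p = 1.3e-05). The complex I subunit Ndufc1 rose by 0.38 ± 0.067, the cytochrome oxidase subunit Cox6a1 by 0.36 ± 0.064 and the ATP synthase subunit Atp5g1 by 0.33 ± 0.056, while Cox7a2l, of supercomplex assembly, fell by 0.46. The list took 2.07, 2.12 and 2.1% of reads with rapamycin and 1.92, 1.91 and 1.92% with DMSO. These are short genes, with a median span of 7.21 kb against 24.7 kb over all genes with a RefSeq span, and short genes as a whole stood higher. Of 9446 genes split by span into 5 equal groups, the shortest, up to 8.84 kb, had a median change of 0.07 with 309 genes higher and 205 lower, while the longest had -0.05 with 96 higher and 203 lower. The 50 respiratory genes in the shortest group had a median of 0.14, and the part of span in the result was not tested. The values of the shortest group also include 80 ribosomal proteins, whose median there was -0.40. The median span of all ribosomal proteins tested was 3.17 kb.

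Mitochondrial ribosomal proteins showed no common direction, with 9 of 82 higher, 11 lower and a median of 0.02. These counts are near the 8.75% higher and 9.4% lower over all genes. Under library totals 14 were higher and 5 lower, and leaving out single libraries gave between 4 and 5 higher (without rapamycin replicate 1 or 2 or DMSO replicate 1 or 2) and 7 lower (without rapamycin replicate 3 or DMSO replicate 2). Mrpl11 rose by 0.35 ± 0.067 and Mrpl1 fell by 0.37 ± 0.07.

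The 13 genes of mitochondrial DNA all had negative values, with a median of -0.64, but none was called by edgeR. At an unadjusted p under 0.05, 3 were lower. The smallest adjusted p-values were those of mt-Atp8 at -0.86 ± 0.27 (adjusted p = 0.079) and mt-Nd3 at -1.01 ± 0.35 (adjusted p = 0.11). The DMSO libraries differed among themselves: the list took 0.396, 0.405 and 0.373% of reads with rapamycin, and 0.321, 0.548 and 0.814% with DMSO. In DMSO replicate 1 the share was thus below all 3 rapamycin libraries. The number called lower was 3 with the DESeq2 Wald test and 2 without DMSO replicate 1.

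In the mitosis list 12 of 48 rose and 1 fell, at a median of 0.09, against 8.75% higher over all genes; without DMSO replicate 3 the falls were 5, without rapamycin replicate 1 they were 2, and without any one of the other libraries, under library totals, with the 6 compared libraries and with the DESeq2 Wald test they were 0. Cdc20, an activator of the anaphase-promoting complex, had 440, 434 and 419 CPM with rapamycin and 337, 342 and 316 CPM with DMSO (0.38 ± 0.052, adjusted p = 7.5e-07). The kinase Aurkb rose by 0.34 ± 0.06, securin Pttg1 by 0.30 ± 0.055 and the spindle protein Nusap1 by 0.26 ± 0.052. Of 23 genes of the G1 cyclins and the RB pathway, 5 rose and 2 fell, at a median of 0.09, and the falls were 1 under library totals and without DMSO replicate 2 or 3. The CDK inhibitors Cdkn2d and Cdkn2c rose by 0.62 ± 0.14 and 0.49, the activator E2f1 rose by 0.43 ± 0.1, and the cyclin Ccne2 fell by 0.34 ± 0.072. In DNA replication 2 of 45 rose and 2 fell, at a median of -0.02, with 5 higher under library totals, 1 higher without rapamycin replicate 2 and 4 lower without DMSO replicate 3.

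The MYCN gene of the line, the cyclin Ccnd1 and Odc1 were not called. The row of mouse Mycn, which may also hold reads of the human transgene, had 664, 707 and 683 CPM with rapamycin, against 706, 772 and 747 CPM with DMSO, and the groups overlapped slightly (-0.12 ± 0.05, adjusted p = 0.1). Ccnd1, a G1 cyclin, had 37.3, 29.1 and 30.2 CPM with rapamycin and 36.7, 36.6 and 38.3 CPM with DMSO (-0.21 ± 0.1, adjusted p = 0.16), and it was called only without rapamycin replicate 1 (-0.33, adjusted p = 0.044). Odc1, of polyamine synthesis, had 396, 403 and 399 CPM with rapamycin and 426, 419 and 416 CPM with DMSO (-0.07 ± 0.051, adjusted p = 0.36). In the MYC network, 4 of 14 genes rose and 2 fell, at a median of -0.06, with 2 higher without DMSO replicate 1. The falls were 1 under library totals, with the 6 compared libraries and without rapamycin replicate 2 or DMSO replicate 1 or 2, and 4 without DMSO replicate 3. Mxi1, an antagonist of MYC, rose by 0.69 ± 0.096. Another, Mxd4, rose by 0.69 ± 0.18, a call lost without DMSO replicate 1 (adjusted p = 0.064), and the MAX-like partner Mlx fell by 0.32 ± 0.083.

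Of 18 immediate early and ERK feedback genes, 7 rose and 2 fell, at a median of 0.27. The phosphatases Dusp5 and Dusp4, which switch off MAP kinases, rose by 0.53 ± 0.096 and 0.47 ± 0.075, and the ERK-induced factor Etv5 rose by 0.47 ± 0.066, with 83.9, 85.9 and 85.2 CPM with rapamycin and 59, 62.8 and 62.7 CPM with DMSO. Jund rose by 0.48 ± 0.077, while the falls were those of Jun, by 0.37, and Klf10, by 0.38. The number of falls was 0 without rapamycin replicate 3 or DMSO replicate 2, and 1 without rapamycin replicate 2, without DMSO replicate 1 or 3, under library totals and with only the 6 compared libraries.

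Neural genes were tested as a check of the line and for change. Of 37 genes in the list 18 could be tested, of which 6 rose and 2 fell, at a median of 0.11. Without rapamycin replicate 3, 1 was lower. Pax6, a factor of neural progenitors, had 75.8, 67.6 and 69.5 CPM with rapamycin and 38.7, 40.7 and 43.6 CPM with DMSO (0.80 ± 0.075, adjusted p = 1.6e-10). Otx2, a medulloblastoma factor, had 192, 191 and 193 CPM with rapamycin and 141, 146 and 143 CPM with DMSO (0.43 ± 0.055), and Neurod1, of the granule neuron lineage, rose by 0.31 ± 0.057. The largest fall of the list was that of Stmn2, given above (-0.74 ± 0.067). The neuronal tubulin Tubb3 fell by 0.24 ± 0.065, a call lost without rapamycin replicate 3 (adjusted p = 0.073). Few markers of other cells could be tested. These were 1 of 11 oligodendrocyte genes, Cnp, 3 of 16 of microglia and blood and 1 of 15 of vessels and fibroblasts. Of these Acta2 fell by 0.23 ± 0.057, with 246, 245 and 272 CPM with rapamycin and 318, 280 and 298 CPM with DMSO. Itgam had 75.1, 60.6 and 63.8 CPM with rapamycin and 76.6, 55 and 83.1 CPM with DMSO and was called lower only without DMSO replicate 2 (-0.26, adjusted p = 0.035). Acta2 and Itgam were not low beside Pax6, so these lists do not settle the identity of the cells.

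Beside these values stand those of Rapalink-1, at 50 nM for the same 3 h, from the same fit. The doses differ and both drugs were set against the same DMSO libraries, so the values are given side by side without a comparison. With Rapalink-1, 6057 genes changed (53.7%), 2896 upward (25.7%) and 3161 downward (28%). The TMM factors ran from 1.1115 to 1.1265 in the Rapalink-1 libraries and from 0.9187 to 0.9369 in the DMSO libraries. Rapalink-1 counts and medians rest on this scaling and are not given under library totals. Ribosomal proteins had medians of -0.40 with rapamycin and -2.12 with Rapalink-1, and TOP mRNAs -0.27 and -1.32. Sterol genes had medians of -0.10 with rapamycin and -0.51 with Rapalink-1, and chaperones -0.17 and -0.47. Among the nuclear respiratory genes, 26 rose and 5 fell with rapamycin, at a median of 0.09, and 2 rose and 64 fell with Rapalink-1, at a median of -0.41. Odc1 stood at -0.07 with rapamycin and -2.52 with Rapalink-1, Eif4ebp1 at 0.18 and -1.52, and Ccnd1 at -0.21 and -1.25. Ubald2 stood at 1.73 with rapamycin and 1.56 with Rapalink-1, Rhebl1 at 1.78 and 2.06, Sesn2 at -0.96 and -1.12, and Ifrd1 at -0.95 and -0.18.

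**Figure D5:**
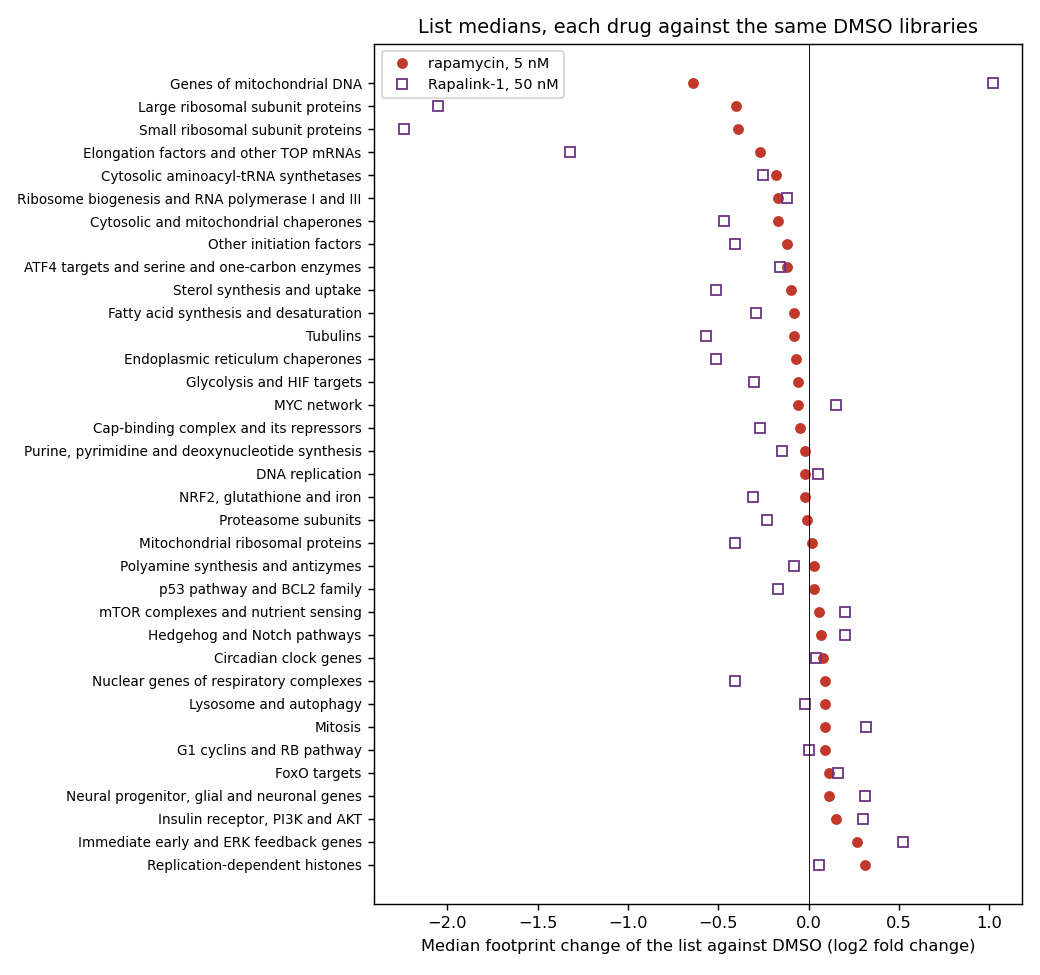
Filled red circles are list medians of the log2 fold change of rapamycin (5 nM) over DMSO, and open purple squares those of Rapalink-1 (50 nM) over the same DMSO libraries (x axis, log2). For large ribosomal subunit proteins the medians are -0.40 and -2.05, and for mitochondrial DNA genes -0.64 and 1.02.

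The authors' deposited table of this comparison held 9811 genes with a symbol, of which 2381 passed an adjusted p of 0.05, 1141 higher and 1240 lower. Of the 9763 genes in both, 1926 passed in the authors' deposited table and in the fit used here, which is 97.8% of the 1970 called here and 81.2% of the 2372 called there, with 0 of opposite sign. The authors' deposited table gave 2.29 for Klhl24 and -0.99 for Hspa8, as here, and called Mycn at -0.11 (adjusted p = 0.031), which was not called here.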

How the data were processed

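Ribosome footprint and total RNA libraries were made from GTML cells with the ARTseq kit, per the labels' protocols. Reads were aligned to mouse build GRCm38 (mm10), per the submitters' processing notes, while aligner, counter and annotation were not given in the sources used here. As deposited by the authors, count values per transcript are raw whole numbers. The log2 values of the authors' comparison table are log2 fold changes, and its p-value column holds adjusted p-values, both as deposited by the authors.

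The 27382 transcript rows were merged to 15307 features, 1 per gene, by equal counts or a shared gene ID. Symbols, from the authors' table, named 9787 features, and features without one held from 1.83 to 2.15% of reads and were fitted too. Where a feature held different counts (62 features), the row with most reads was kept. Genes passed filterByExpr (minimum count 10, minimum total 15), which left 11281. Counts of the 9 footprint libraries were fitted with edgeR 4.0.16 (TMM, glmQLFit with robust dispersion, glmQLFTest, two-sided) in R 4.3.3, at a biological coefficient of variation of 6.38%, and the contrast of rapamycin with DMSO was tested. Benjamini-Hochberg adjustment ran over all genes tested. On simulated counts of 11181 genes in these libraries the fit recovered 95.8% of genes lowered and 100% of genes raised by a log2 change of 1. At 0.5 it recovered 77.1% and 80%. The simulation gave every gene the same dispersion and changed few genes, so recovery at the wider spread of some real genes was not measured. Alternatives used DESeq2 1.42.0, other scalings, no filter, fewer libraries and a replicate block. With 3 libraries a group, an exact permutation test of 1 gene cannot go below p = 0.1, so none was used.

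The genes and lists were chosen with earlier results of these data known. Genes are named by a rule: the 12 largest rises and the 12 largest falls that were called, did not overlap between groups and had a mean log2 CPM of at least 4, the 4 members of smallest p in each of 38 lists, and 20 genes in every case. Others were named after their values were seen, and some that the rule selects are not reported here. Near-identical copies share reads.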

Additional observations from a re-analysis of the deposited data

How the results depend on the processing

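The number of genes called was 2047, and it stayed between 1512 and 2166 in every alternative run, the lowest without DMSO replicate 1. Leaving out each of the 6 libraries in turn gave 1512 to 2029 calls, 733 to 938 higher and 779 to 1091 lower. With library totals in place of TMM 654 genes were lower, the only such count to move by over 1.5 times, and 68% of the calls were rises, against 48.2%. Whether the replicate numbers of the titles pair the libraries could not be settled with 3 libraries a group. Same-numbered rapamycin and DMSO libraries deviated with correlations of 0.026, 0.034 and -0.056. Among the rapamycin libraries, DMSO replicate 1 correlated best with replicate 3, at 0.073. Same-numbered Rapalink-1 and DMSO libraries gave 0.056, 0.021 and 0.067. A fit with the replicate block gave 2166 calls, with 39 histone genes higher, 5 proteasome subunits lower and 2 fatty acid genes higher. The DESeq2 Wald test gave 1781.

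A few values close to 0 changed sign. Under library totals the median was 0.037 for proteasome subunits, 0.029 for DNA replication and 0.036 for the NRF2, glutathione and iron list, and Mtor stood at 0.02 and Eif4ebp2 at 0.01. Leaving out each library in turn gave medians from -0.032 to 0.013 for DNA replication (0.013 without DMSO replicate 1, and 0.001 and 0.003 without rapamycin replicate 1 and 2) and from -0.057 to 0.036 for the NRF2 list (0.036 without rapamycin replicate 2, 0.011 without DMSO replicate 3). It gave Eef2k from -0.04 to 0.09 and Eif4ebp2 from -0.06 to 0.01 (both turned without DMSO replicate 1), Mtor from -0.08 to 0.05 (turned without DMSO replicate 2) and Rps6kb1 from -0.01 to 0.12 (turned without rapamycin replicate 3). The cause was not tested beyond the shift that library totals give every gene. Depth limits genes at a few CPM, such as Rhebl1, whose standard error of 0.18 exceeds the median of 0.078 over called genes.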

Other observations

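Replication-dependent histone genes, whose mRNAs are made in S phase and lack poly(A) tails, stood higher with rapamycin. Of 53 tested, 22 rose and 0 fell in the edgeR test, at a median of 0.31, against 8.75% higher over all genes, and with the DESeq2 Wald test 25 rose and 0 fell. At an unadjusted p under 0.05, 35 were higher and 0 lower. The rises were 38 with only the 6 compared libraries. The H3 gene Hist1h3f had 4740, 4730 and 4220 CPM with rapamycin and 3150, 3120 and 3370 CPM with DMSO (0.50 ± 0.055, adjusted p = 3.7e-08). Its counts are close to those of Hist1h3c, Hist1h3h and Hist1h3i, so these are not separate observations, and the same reads may be counted in several copies. The summed counts were 11.7, 12.3 and 10.8% of the library total with rapamycin, against 8.28, 8.99 and 9.14% with DMSO. Of 45 DNA replication genes 2 rose, and the part of either measure in the other was not tested.

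Clock genes moved in both directions, with 4 of 19 higher and 2 lower at a median of 0.08. The shares over all genes were 8.75% higher and 9.4% lower. The falls were 1 under library totals and without rapamycin replicate 2 or 3 or DMSO replicate 2. The repressor Nr1d2 had 49.4, 47.9 and 47.7 CPM with rapamycin and 24.8, 21.9 and 25 CPM with DMSO (1.01 ± 0.082, adjusted p = 4.6e-12). Rorb rose by 0.67 ± 0.15, while Ciart fell by 0.93 ± 0.19. The oxidative stress factor Nfe2l2 (NRF2) had 84.3, 77.3 and 81.5 CPM with rapamycin and 118, 120 and 118 CPM with DMSO (-0.55 ± 0.065, adjusted p = 3.0e-08), and the transferrin receptor Tfrc fell by 0.39 ± 0.063. In that list of NRF2, glutathione and iron genes 3 of 21 rose and 4 fell, at a median of -0.02, with 5 higher under library totals and 1 higher without rapamycin replicate 2.

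Of 18 hedgehog and Notch genes 5 rose and 0 fell in the edgeR test, at a median of 0.07; 1 was lower at an unadjusted p under 0.05, and 3 rose and 0 fell with the DESeq2 Wald test. The rises were also 3 with the 6 compared libraries and without rapamycin replicate 2 or 3 or DMSO replicate 1 or 3. Ptch1, the hedgehog receptor, rose by 0.47 ± 0.12 and Numbl, an inhibitor of Notch, by 0.48 ± 0.13. In nucleotide synthesis 2 of 29 rose and 5 fell, at a median of -0.02, against 8.75% higher and 9.4% lower over all genes. The falls were 3 under library totals and without rapamycin replicate 1 or DMSO replicate 2. Ppat, the first enzyme of purine synthesis, fell by 0.27 ± 0.055 and thymidine kinase Tk1 rose by 0.31 ± 0.06. Of 39 proteasome subunits 2 rose and 3 fell, at a median of -0.01, and both counts are below the shares over all genes. Leaving out DMSO replicate 3 gave 4 higher and 7 lower. Leaving out rapamycin replicate 2 gave 1 higher, and library totals gave 4 higher and 1 lower. Of 15 tubulins 2 fell and 0 rose in the edgeR test, as at an unadjusted p under 0.05 and with the DESeq2 Wald test, at a median of -0.08, and without rapamycin replicate 3 the falls were 1.

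In the p53 and BCL2 list 2 of 18 rose and 1 fell, at a median of 0.03. The shares over all genes were 8.75% higher and 9.4% lower. Trp53 rose by 0.15 ± 0.051, a call lost with the 6 compared libraries, without rapamycin replicate 1 and without DMSO replicate 1 or 2 (adjusted p from 0.063 to 0.16). Bax, which permeabilizes mitochondria, rose by 0.33 ± 0.082, a call lost without DMSO replicate 1 (adjusted p = 0.061), and the nuclease Aen fell by 0.37 ± 0.071. The falls were 2 without rapamycin replicate 3. Of 15 genes of polyamine synthesis and antizymes 1 rose and 1 fell, at a median of 0.03, and both counts are below the shares over all genes. The rise was lost without rapamycin replicate 2 or DMSO replicate 1 or 3. The fall was lost under library totals and without rapamycin replicate 2 or DMSO replicate 1, while 2 fell without DMSO replicate 3.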
